A study of Homo sapiens with 12 samples.

Results

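Dystrophin and the proteins it assembles with were followed by 10 genes, DMD, UTRN, DAG1, SGCB, SGCE, SNTB1, SNTB2, DTNA, DTNB and SSPN, out of 19907 gene symbols in the data. They were chosen by name as the complex of dystrophin, and the set was built around DMD because its level was high in one cell line and low in the other. The difference in DMD between the lines is therefore given below as a description with no test, and the question was whether its partners followed. All 10 passed the filter on low counts, as did 18579 genes in all. The 12 RNA-seq libraries came from MDA-MB-231, a triple-negative breast cancer line. The wt-GR cells carried an unedited glucocorticoid receptor gene (NR3C1) and were, by the study's methods, a non-targeted clone from the CRISPR/Cas9 experiment. The S134A-GR cells were clone #1, in which both alleles of NR3C1 were edited to carry S134A, which puts alanine in the place of a serine. Both lines had been starved of serum for 18 h in IMEM with 1% DCC, and TGFβ1 at 10 ng/mL, or vehicle, was present for a further 6 h. This gave 4 groups of 3 libraries (wt-GR vehicle, wt-GR TGFβ1, S134A-GR vehicle and S134A-GR TGFβ1). Each line was 1 clone, so the receptor substitution and other differences between clones cannot be told apart.

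Dystrophin is a very large rod-shaped protein under the plasma membrane. It ties the actin cytoskeleton to dystroglycan, a receptor that spans the membrane and binds laminins outside the cell through sugar chains, while sarcoglycans and sarcospan sit beside dystroglycan and syntrophins and dystrobrevins hang signaling proteins on the inner side. In skeletal muscle, where loss of dystrophin causes Duchenne muscular dystrophy, this assembly protects the membrane during contraction. Utrophin, the close relative of dystrophin, takes its place in many cells that are not muscle.

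The libraries held 56362036 to 129832227 reads, recovered from the normalized counts, and 3 reads, taken as the floor, came to 2.15 to 4.89 normalized counts. Each library held more reads than the average per sample in the study's methods. The sources used here do not say whether both reads of a pair were counted, and the reason was not tested. Nothing in the labels says that the replicates came from separate cultures, so the p-values below measure only the spread between these samples, which may be technical. Of the markers of the line, CDH1 stayed at or below 12.5 normalized counts and ESR1 at or below 7.32, ERBB2 had group means of 7734 to 10494, and EPCAM was lower in S134A-GR cells (means of 339 to 378) than in wt-GR cells (1018 to 1024). NR3C1 had 8336 to 9398 normalized counts in the 6 S134A-GR libraries and 10444 to 12729 in the 6 wt-GR libraries, and counts per gene do not show the substitution itself. The TGFβ1 targets SMAD7, SKIL and PMEPA1 were higher after TGFβ1 in both lines.

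DMD, which encodes dystrophin, is one of the longest human genes. It lies on the minus strand of chromosome X from 31097677 to 33339609 (hg38, GENCODE v44), a span of 2242 kb, and its longest annotated transcript has 79 exons and 14.0 kb. Several promoters start this gene. Those of the full-length forms are known from brain cortex, muscle and Purkinje cells, and others within the gene give shorter forms. Because the values are counts per gene, they do not tell which promoter was used. The 250 bases before the start of transcription are shown for the 3 full-length starts of DMD and for the first start of UTRN, the gene of utrophin, since DMD was the member with a large change and UTRN is its nearest relative (RefSeq, GRCh38.p14, each read 5′ to 3′ on the gene's own strand). Capitals mark AGAACA, the core hexamer that glucocorticoid receptors bind, and a CArG box, the motif of serum response factor.
DMD brain start, chrX:33339389-33339638, minus strand: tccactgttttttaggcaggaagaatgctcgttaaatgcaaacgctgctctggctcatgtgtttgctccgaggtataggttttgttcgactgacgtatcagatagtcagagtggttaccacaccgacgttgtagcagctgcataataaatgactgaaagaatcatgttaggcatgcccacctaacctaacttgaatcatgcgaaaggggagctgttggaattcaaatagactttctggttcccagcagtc
DMD muscle start, chrX:33211550-33211799, minus strand: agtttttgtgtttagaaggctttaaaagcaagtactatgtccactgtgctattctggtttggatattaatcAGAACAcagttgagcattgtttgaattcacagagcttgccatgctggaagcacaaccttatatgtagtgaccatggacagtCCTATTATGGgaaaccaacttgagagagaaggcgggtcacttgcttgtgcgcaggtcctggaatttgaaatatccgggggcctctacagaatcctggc
DMD Purkinje start, chrX:33128429-33128678, minus strand: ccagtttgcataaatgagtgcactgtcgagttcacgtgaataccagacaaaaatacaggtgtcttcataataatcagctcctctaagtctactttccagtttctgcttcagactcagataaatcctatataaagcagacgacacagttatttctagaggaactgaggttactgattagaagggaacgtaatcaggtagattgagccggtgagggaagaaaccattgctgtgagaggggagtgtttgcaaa
UTRN first start, chr6:144285085-144285334, plus strand: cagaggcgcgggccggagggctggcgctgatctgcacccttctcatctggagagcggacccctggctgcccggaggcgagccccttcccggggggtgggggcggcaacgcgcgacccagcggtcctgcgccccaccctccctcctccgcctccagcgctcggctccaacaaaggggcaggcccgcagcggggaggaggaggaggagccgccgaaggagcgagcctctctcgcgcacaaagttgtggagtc
Of the windows shown, the muscle window held both motifs, AGAACA beginning 179 bases and the CArG box 98 bases before the start. The UTRN window was rich in G and C (73.2%, with 24 CpG pairs), and the DMD windows were not (41.6% to 44.8%, with 3 to 8 CpG pairs). Over 24 starts of 8 of the 10 genes, AGAACA on either strand was found in 3 windows, in DTNB, UTRN and DMD, and the CArG box in 2, in SSPN and DMD. Of all 35116 windows of the same length, 12.4% held AGAACA and 1.16% a CArG box. The SMAD element GTCTAGAC, in 0.182% of all windows, was in none of the 24. The full palindromic receptor element, in 0.00285% of all windows, was in none of them either. The 7 DMD starts among the 24 had no entry for the shortest form of the gene, whose promoter was therefore not searched. Those at 33128428 and 33128427 are adjacent bases, so their windows are nearly the same. SNTB1 and SGCE are named only.

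DMD was close to silent in the wt-GR line and clearly expressed in S134A-GR cells. In wt-GR cells it had 42.4, 67.6 and 54.8 normalized counts under vehicle and 61.1, 53.5 and 61.1 with TGFβ1. In S134A-GR cells it had 2301, 2384 and 2383 under vehicle and 2626, 2282 and 2358 with TGFβ1. The lowest S134A-GR library lay far above the highest wt-GR library under both treatments. The mean was 42.9 times higher under vehicle (2356 ± 47.9 against 54.9 ± 12.6, SD, n = 3) and 41.4 times higher with TGFβ1 (2422 ± 181 against 58.6 ± 4.41, SD, n = 3), or 5.42 and 5.35 on the scale of log2(normalized count + 1) used for all fold changes here. Of all genes tested, 0.28% had a larger absolute difference between the lines under vehicle and 0.285% with TGFβ1. The low level was above the floor, with 26 to 64 reads in the wt-GR vehicle libraries. RNA was taken from whole cultures, so a high level in few cells and a low level in many cannot be told apart.

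**Figure D1:**
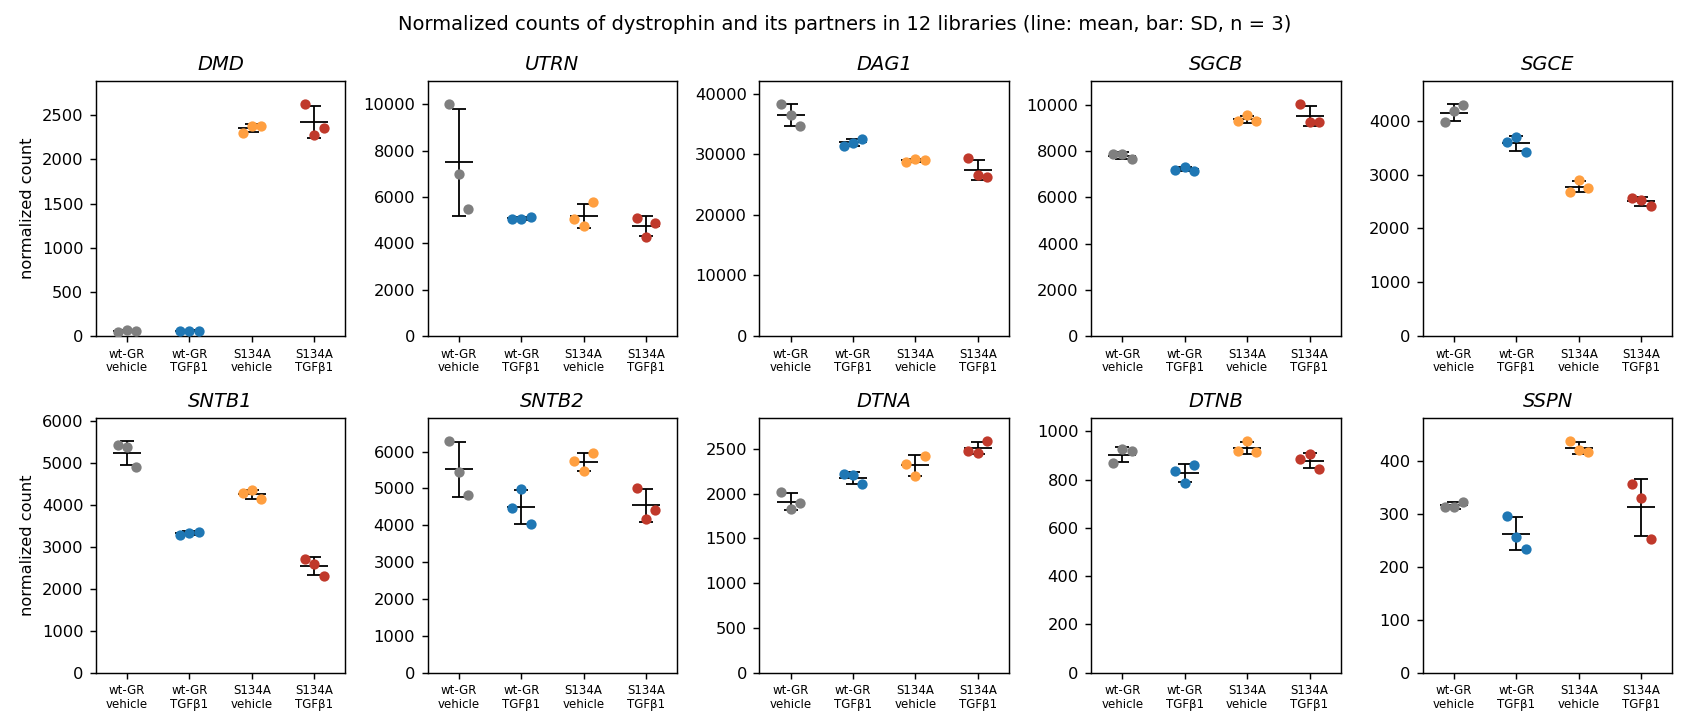
Normalized counts (y axis, from 0, with its own scale in each panel) of the 10 genes in the 12 libraries, by group (x axis). Points are libraries, lines the means and bars the SD (n = 3). DMD steps from 42.4 to 67.6 in wt-GR cells to 2282 to 2626 in S134A-GR cells, and none of the other 9 genes has a step of that size.

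TGFβ1 left DMD within the spread of the replicates in both lines. Treated and untreated libraries overlapped in each line. The log2 fold change was 0.11 in wt-GR cells (95% CI −0.18 to 0.41, adjusted p = 0.629, limma) and 0.04 in S134A-GR cells (95% CI −0.25 to 0.33, adjusted p = 0.903, limma), and the difference between these responses was −0.08 (95% CI −0.49 to 0.34, adjusted p = 0.925, limma).

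The partners did not follow DMD in size. Of the 9, 7 differed between the lines under vehicle at an adjusted p under 0.05 in limma (in S134A-GR cells 3 were higher and 4 lower), beside 51.5% of all genes tested, 25.0% higher and 26.5% lower. With TGFβ1 5 of the 9 differed (2 higher and 3 lower), beside 48.8% of all genes, 23.1% higher and 25.7% lower. The partners' log2 fold changes ran from −0.58 to 0.43 under vehicle, with a median of 0.05, and from −0.51 to 0.40 with TGFβ1, with a median of 0.01. Over all genes tested the medians were 0.019 and 0.012, and the median absolute differences were 0.32 and 0.30. No partner reached an absolute log2 fold change of 1, which 9.51% of all genes passed under vehicle and 8.46% with TGFβ1. The libraries of the lines did not overlap for 6 of the 9 partners under vehicle and 5 with TGFβ1, beside 57.3% and 55.6% of all genes, shares of a like order.

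**Figure D2:**
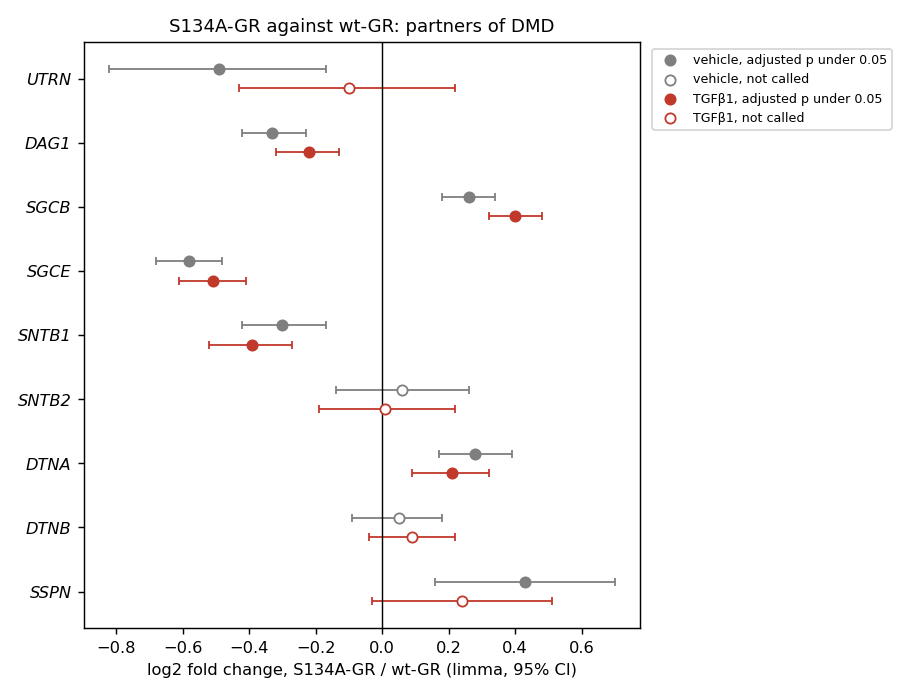
Log2 difference, S134A-GR minus wt-GR (x axis, limma, with 95% CI) for the 9 partners of DMD (y axis), under vehicle (gray) and TGFβ1 (red). Filled points passed an adjusted p of 0.05. All points lie between −0.58 and 0.43, whereas DMD, not drawn, lay at 5.42 and 5.35.

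UTRN was the partner with the widest spread. It lies on the plus strand of chromosome 6 from 144285335 to 144853034 and has a longest transcript of 12.9 kb. It had 10000, 6999 and 5484 normalized counts in vehicle-treated wt-GR cells and 5046, 4751 and 5758 in vehicle-treated S134A-GR cells. With TGFβ1 it had 5052, 5029 and 5145 in the wt-GR line and 5099, 4269 and 4851 in S134A-GR cells. The first wt-GR vehicle library stood alone, and the third lay among the S134A-GR libraries. The difference between the lines under vehicle was −0.49 (SE 0.152, adjusted p = 0.0142, limma). Without the first wt-GR vehicle library, an alternative that was looked at again after its value had been seen, it was −0.26 (adjusted p = 0.0415, limma), and over 22 alternatives the adjusted p ran from 0.000229 to 0.0768, the highest from a fit on the compared groups alone. With TGFβ1 the lines differed by −0.10 (95% CI −0.43 to 0.22, adjusted p = 0.616, limma). In the same first library the 641 genes with transcripts of 10 kb or more stood 0.16 above the mean of their group (median, log2 scale), and in the third library they stood 0.16 below it. In the other 10 libraries this median lay between −0.06 and 0.08. The part of this length pattern in the UTRN result was not tested.

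Per kilobase of the longest transcript, which allows levels of different genes to be compared, DMD reached 0.391% to 0.922% of UTRN in wt-GR vehicle libraries and 0.981% to 1.12% in wt-GR libraries with TGFβ1. In S134A-GR cells it reached 38.2% to 46.3% under vehicle and 44.9% to 49.4% with TGFβ1. By this measure UTRN remained the more abundant of the related genes in all 12 libraries. In wt-GR cells under vehicle the order of mean levels per kilobase was DAG1 (6194), SGCB (1840), SNTB1 (1012), SGCE (662), UTRN (580), SNTB2 (566), DTNB (367), DTNA (291), SSPN (69.9) and DMD (3.93), and the libraries of SGCE, UTRN and SNTB2 overlapped. In S134A-GR cells under vehicle DMD, at 168, stood between DTNA (352) and SSPN (94.0). Among the 17638 tested genes with a known length, DMD moved from the 14.7th to the 43.3rd percentile. These levels take all reads as coming from the longest transcript, and for DMD a shorter form would give a higher level per kilobase. The order of DMD and UTRN in S134A-GR cells therefore depends on the forms present, which the counts do not tell.

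**Figure D3:**
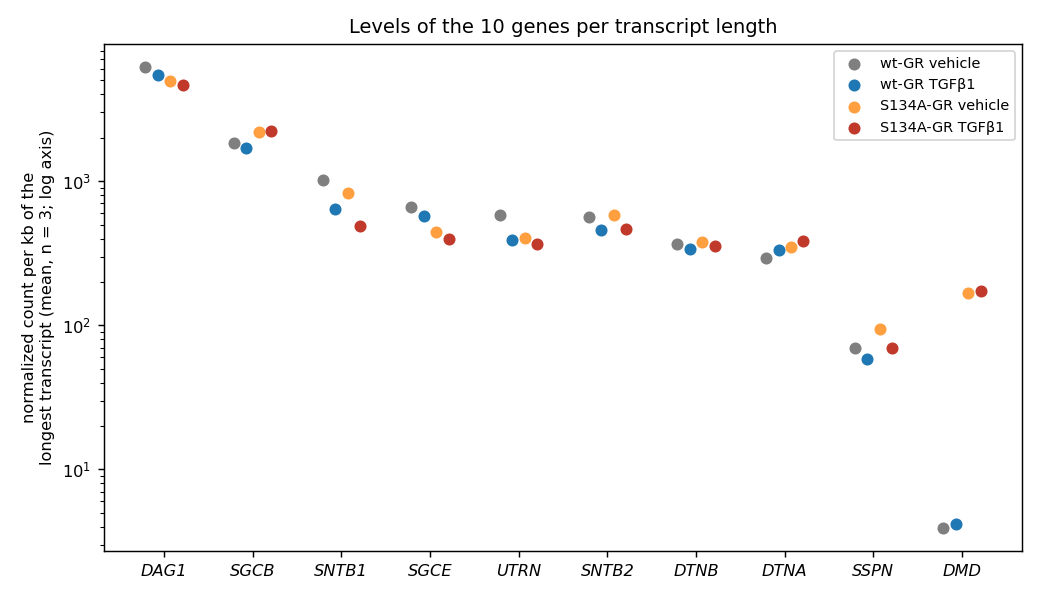
Mean normalized count per kb of the longest transcript (y axis, log scale, n = 3) of the 10 genes (x axis, ordered by wt-GR vehicle) in the 4 groups. DMD is the lowest gene in wt-GR cells, at 3.93 and 4.18, and lies above SSPN in S134A-GR cells, at 168 and 173.

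DAG1 encodes both subunits of dystroglycan, the core of the assembly, and was the most abundant member per kilobase. It had 38273, 36424 and 34671 normalized counts in vehicle-treated wt-GR cells against 28669, 29224 and 29095 in S134A-GR cells. After TGFβ1 the values were 31392, 31918 and 32578 in wt-GR cells against 29334, 26529 and 26294 in S134A-GR cells. All S134A-GR libraries lay below all wt-GR libraries of the same treatment. DAG1 was 20.5% lower in vehicle-treated S134A-GR cells (log2 −0.33, SE 0.0445, adjusted p = 2.45e-05, limma) and 14.3% lower with TGFβ1 (log2 −0.22, SE 0.0445, adjusted p = 0.000754, limma).

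The sarcoglycans differed in direction. SGCE, which encodes ε-sarcoglycan, the sarcoglycan best known outside striated muscle, had 3981, 4178 and 4295 normalized counts in vehicle-treated wt-GR cells and 2686, 2893 and 2748 in S134A-GR cells. Under TGFβ1 its values were 3616, 3694 and 3428 in the wt-GR line and 2572, 2536 and 2414 in S134A-GR cells. It had the largest difference among the partners, −0.58 under vehicle (SE 0.047, adjusted p = 1.77e-07, limma) and −0.51 with TGFβ1 (SE 0.047, adjusted p = 6.45e-07, limma). SGCE lies on chromosome 7 from 94524204 to 94656572 and overlaps its neighbors CASD1 and PEG10 in the annotation. PEG10, an imprinted gene that shares its control region with SGCE, was lower in S134A-GR cells, with −0.75 and −0.59 (adjusted p = 2.29e-06 and 2.29e-05, limma), as was CASD1, a sialic acid O-acetyltransferase gene, with −0.56 and −0.54 (adjusted p = 7.06e-05 and 0.000105, limma). SGCB, which encodes β-sarcoglycan, a subunit of sarcoglycan complexes in many tissues, went the other way, with 7888, 7899 and 7658 in wt-GR cells and 9289, 9552 and 9289 in vehicle-treated S134A-GR cells. With TGFβ1 it had 7201, 7324 and 7163 in the wt-GR line and 10038, 9255 and 9287 in S134A-GR cells. The libraries of the lines did not overlap, and SGCB was higher in S134A-GR cells by 0.26 under vehicle (SE 0.0365, adjusted p = 3.12e-05, limma) and 0.40 with TGFβ1 (SE 0.0365, adjusted p = 6.55e-07, limma). The level of SGCE per kilobase was 34.2% to 38.0% of that of SGCB in vehicle-treated wt-GR cells and 19.6% to 20.5% in S134A-GR cells.

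SSPN encodes sarcospan, a small membrane protein that stays with the sarcoglycans. It had 313, 314 and 324 normalized counts in vehicle-treated wt-GR cells and 439, 422 and 418 in S134A-GR cells. After TGFβ1 the values were 297, 257 and 235 in the wt-GR line and 358, 330 and 253 in S134A-GR cells. The lines did not overlap under vehicle and did with TGFβ1. The difference was 0.43 under vehicle (SE 0.125, adjusted p = 0.0108, limma), and with TGFβ1 it was 0.24 (95% CI −0.03 to 0.51, adjusted p = 0.128, limma). Without the third S134A-GR TGFβ1 library the latter was 0.39 (adjusted p = 0.0116, limma), the only one of 22 alternatives to pass, the highest being 0.404.

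The syntrophins are adaptors that carry channels and signaling enzymes to the complex. SNTB1, the gene of β1-syntrophin on chromosome 8, had 5419, 5369 and 4895 normalized counts in vehicle-treated wt-GR cells and 4274, 4342 and 4134 in S134A-GR cells. Under TGFβ1 its values were 3268, 3328 and 3359 in the wt-GR line and 2715, 2596 and 2292 in S134A-GR cells. The 4 groups did not overlap at all. Between the lines the difference in SNTB1 was −0.30 under vehicle (SE 0.0582, adjusted p = 0.000616, limma) and −0.39 with TGFβ1 (SE 0.0582, adjusted p = 6.36e-05, limma). SNTB2, the gene of β2-syntrophin on chromosome 16, did not differ detectably between the lines. It had 6289, 5450 and 4813 in wt-GR cells and 5739, 5460 and 5956 in vehicle-treated S134A-GR cells, a difference of 0.06 (95% CI −0.14 to 0.26, adjusted p = 0.633, limma). With TGFβ1 it had 4477, 4972 and 4040 in the wt-GR line and 5023, 4165 and 4419 in S134A-GR cells, a difference of 0.01 (95% CI −0.19 to 0.22, adjusted p = 0.925, limma). The ratio of SNTB1 to SNTB2 per kilobase was highest in vehicle-treated wt-GR cells, 1.63 to 1.92, and lowest in S134A-GR cells with TGFβ1, 0.98 to 1.18.

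The dystrobrevins, which resemble the end of dystrophin and bind both it and the syntrophins, were also unlike each other. DTNA, the gene of α-dystrobrevin on chromosome 18, had 2014, 1824 and 1895 normalized counts in vehicle-treated wt-GR cells and 2335, 2192 and 2421 in S134A-GR cells. After TGFβ1 the values were 2216, 2204 and 2103 in the wt-GR line and 2479, 2456 and 2589 in S134A-GR cells. All S134A-GR libraries lay above the wt-GR libraries of the same treatment, by 0.28 under vehicle (SE 0.0519, adjusted p = 0.000433, limma) and 0.21 with TGFβ1 (SE 0.0519, adjusted p = 0.00437, limma). DTNB, the gene of β-dystrobrevin on chromosome 2, had 867, 925 and 918 in wt-GR cells and 920, 960 and 916 in vehicle-treated S134A-GR cells. Under TGFβ1 its values were 834, 785 and 862 in the wt-GR line and 883, 906 and 845 in S134A-GR cells. The lines overlapped under both treatments, with differences of 0.05 (95% CI −0.09 to 0.18, adjusted p = 0.567, limma) and 0.09 (95% CI −0.04 to 0.22, adjusted p = 0.266, limma).

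Across the partners, 5 of 9 were called in the same direction under both treatments, with SGCB and DTNA higher and DAG1, SGCE and SNTB1 lower in S134A-GR cells. SNTB2 and DTNB were called under neither. SGCE, SNTB1, SNTB2 and SSPN, 4 of the 10 genes, overlap another protein-coding gene in the annotation, and since the strand setting of the counting is not given in the sources used here, reads of such genes may not be fully separable.

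The response to TGFβ1 was mostly downward and small. The set was not built on this response, though earlier results of these data were known when the genes were chosen. In wt-GR cells 7 of the 10 genes passed an adjusted p of 0.05 in limma (1 higher and 6 lower), beside 21.0% of all genes tested, 11.2% higher and 9.82% lower. In S134A-GR cells 4 of 10 passed, all lower, beside 18.7% of all genes, 10.0% higher and 8.69% lower. The median log2 fold change of the 10 genes was −0.20 in the wt-GR line and −0.11 in S134A-GR cells, beside −0.005 and −0.01 over all genes tested. The libraries did not overlap between treatments for 8 of 10 genes in the wt-GR line and 6 of 10 in S134A-GR cells, beside 33.9% and 35.6% of all genes. None of the 10 reached an absolute log2 fold change of 1, which 2.29% of all genes passed in wt-GR cells and 1.66% in the S134A-GR line. The wt-GR vehicle libraries also served in the comparison of the lines under vehicle. The counts fell when libraries were left out. Without wt-GR vehicle library 1 or 2 the count in wt-GR cells was 4 or 3, and without wt-GR TGFβ1 library 1, 2 or 3 it was 3, 4 or 4. Without S134A-GR vehicle library 1, 2 or 3 the count in S134A-GR cells was 1, 2 or 1, and without S134A-GR TGFβ1 library 2 or 3 it was 2 or 1.

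SNTB1 had the strongest response, and its groups did not overlap in either line. It fell by 36.5% in wt-GR cells (log2 −0.65, SE 0.0582, adjusted p = 1.58e-06, limma) and by 40.4% in S134A-GR cells (log2 −0.75, SE 0.0582, adjusted p = 5.11e-07, limma). Of all genes tested, 13.6% and 9.6% had a larger absolute response. SNTB2 changed by −0.29 in wt-GR cells, where treated and untreated libraries overlapped (adjusted p = 0.0415, limma), and by −0.34 in S134A-GR cells (adjusted p = 0.0222, limma). SGCE changed by −0.21 in wt-GR cells (adjusted p = 0.00468, limma) and −0.15 in S134A-GR cells (adjusted p = 0.0434, limma). These were the 3 members called in the same direction in both lines, and only SNTB1 was called in both lines in all 22 alternatives. SNTB2 passed in 13 of 22 in wt-GR cells (adjusted p from 0.00666 to 0.178, limma and other tools) and in 18 of 22 in S134A-GR cells (0.00257 to 0.091). In wt-GR cells its change was −0.19 without vehicle library 1 (adjusted p = 0.166, limma) and −0.22 without TGFβ1 library 3 (adjusted p = 0.178, limma). SGCE passed in all 22 in wt-GR cells and in 13 of 22 in S134A-GR cells (0.0307 to 0.167, with 0.0534 under a replicate block).

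The other calls were made in 1 line each, and none of these genes is thereby shown to respond differently. In wt-GR cells UTRN changed by −0.52 (adjusted p = 0.0257, limma), DAG1 by −0.19 (adjusted p = 0.00742, limma) and SGCB by −0.11 (adjusted p = 0.042, limma), and DTNA rose by 0.19 (adjusted p = 0.0193, limma). Without the first wt-GR vehicle library the UTRN response was −0.29 (adjusted p = 0.0627, limma), and it passed in 16 of 22 alternatives (adjusted p from 0.000566 to 0.118). DAG1 passed in all 22, DTNA in 19 (0.00521 to 0.0931) and SGCB in 12 (0.0178 to 0.129). In S134A-GR cells SSPN fell by 0.46 (adjusted p = 0.02, limma), a call made in 17 of 22 alternatives (0.004 to 0.0816), where in wt-GR cells its change was −0.28 (95% CI −0.54 to −0.01, adjusted p = 0.147, limma). DTNB had −0.13 in wt-GR cells (95% CI −0.26 to 0.00, adjusted p = 0.166, limma) and −0.09 in S134A-GR cells (95% CI −0.22 to 0.04, adjusted p = 0.383, limma). Tested directly, the difference between the responses passed for 0 of the 10 genes in limma, in edgeR and in DESeq2, beside 0.414% of all genes in limma, 0.167% higher and 0.248% lower, and 0.0592% with an absolute log2 difference of at least 1. At an unadjusted p under 0.05 in limma there was 1, SGCB. The share of all genes at that threshold is not given here, so this count is not a result about SGCB. The responses of SGCB differed by 0.13 (95% CI 0.02 to 0.24, adjusted p = 0.431, limma).

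**Figure D4:**
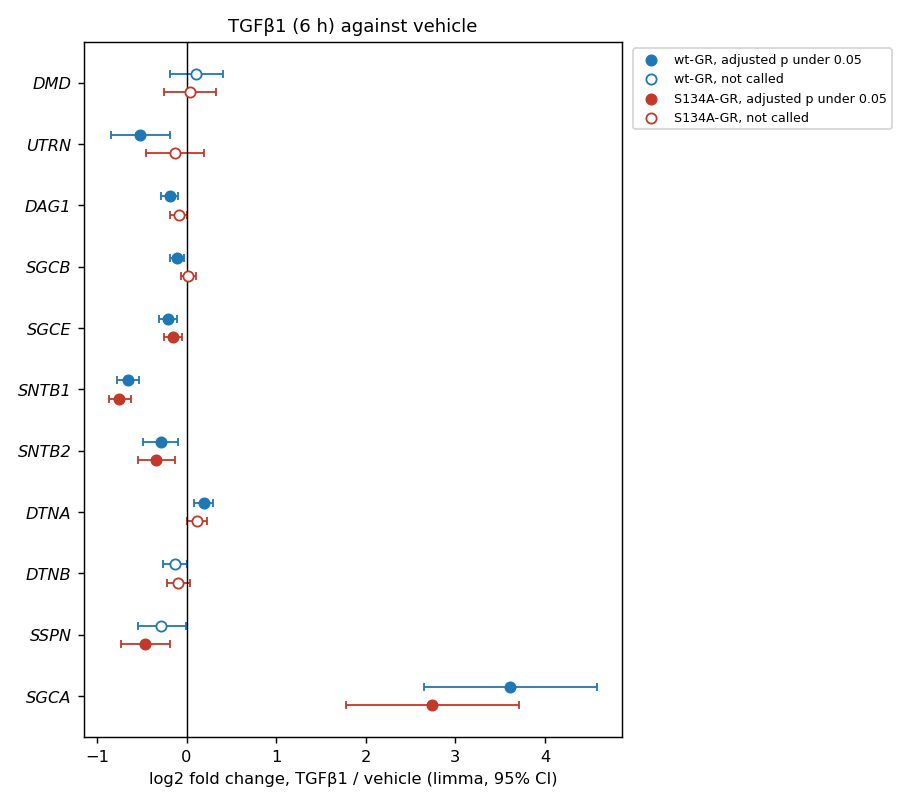
Log2 fold change of TGFβ1 against vehicle (x axis, limma, with 95% CI) in wt-GR (blue) and S134A-GR cells (red) for the 10 genes and for SGCA of the wider complex (y axis). Filled points passed an adjusted p of 0.05. SNTB1 lies at −0.65 and −0.75, DMD near 0 in both lines, and SGCA, a gene of few counts, at 3.61 and 2.74.

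Of 10 further genes of the complex, 7 had a row and 5 were tested, while SGCD, SGCZ and SNTG2 were not analysed here. SNTG1 and NOS1, the genes of γ1-syntrophin and neuronal nitric oxide synthase, had at most 2 and 4 reads in a library. DTNBP1, the gene of dysbindin, which binds dystrobrevins, was lower in S134A-GR cells, with −0.28 under vehicle and −0.20 with TGFβ1 (adjusted p = 0.00113 and 0.0122, limma). DRP2, another relative of dystrophin, had normalized counts of 157 to 241 in the wt-GR line and 178 to 292 in S134A-GR cells and was not called. In all, 3 of the 5 differed between the lines under vehicle (1 higher and 2 lower) and 2 with TGFβ1 (both lower), beside 51.5% and 48.8% of all genes, with medians of 0.25 and 0.16, opposite in sign to most of the calls, and without the third wt-GR TGFβ1 library the latter count was 1.

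SGCA, the gene of α-sarcoglycan, a subunit best known from striated muscle, was the one gene of the complex with a large TGFβ1 response, from a very low level. It had 1.63, 7.40 and 1.05 normalized counts in vehicle-treated wt-GR cells and 37.8, 39.5 and 51.9 with TGFβ1. In S134A-GR cells it had 6.60, 6.08 and 6.24 under vehicle and 40.9, 64.8 and 41.5 with TGFβ1. The treated libraries, with 34 to 64 reads, lay above all untreated ones, with 1 to 7 reads. The log2 fold change was 3.61 in wt-GR cells (95% CI 2.65 to 4.58, adjusted p = 4.32e-05, limma) and 2.74 in S134A-GR cells (95% CI 1.78 to 3.71, adjusted p = 0.000579, limma). In wt-GR cells DTNBP1 fell by 0.22 with TGFβ1 (adjusted p = 0.0145, limma). With TGFβ1 2 of the 5 genes were called in each line (1 higher and 1 lower), beside 21.0% and 18.7% of all genes, and 1 in wt-GR cells without TGFβ1 library 1, or in S134A-GR cells without vehicle library 2 or TGFβ1 library 3. The medians of the 5 tested genes were −0.02 in the wt-GR line and −0.14 in S134A-GR cells.

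Dystroglycan binds the matrix only after its sugar chains are built, by enzymes followed here by 18 genes, all tested. Between the lines 13 of 18 were called under vehicle (8 higher and 5 lower in S134A-GR cells) and 12 with TGFβ1 (7 higher and 5 lower), beside 51.5% and 48.8% of all genes tested. The medians were −0.08 and −0.02, opposite in sign to the majority of the calls. POMT1 and POMT2, which start the O-mannose chain, were higher by 0.65 and 0.53 under vehicle (adjusted p = 1.49e-07 and 0.00018, limma) and by 0.71 and 0.42 with TGFβ1 (adjusted p = 7.08e-08 and 0.00126, limma). DPM2 and DPM3, subunits of the synthase of the mannose donor, were higher by 0.60 and 0.80 under vehicle (adjusted p = 2.07e-07 and 1.93e-06, limma). LARGE2, which extends the chain that binds laminin, had 16.3, 6.34 and 3.16 normalized counts in vehicle-treated wt-GR cells and 0 in the 3 S134A-GR libraries, at least 3.02-fold lower against the floor of 3 reads per library. The highest value decides this bound, which was 1.67 without wt-GR vehicle library 1, and the lowest, 3.16, is itself at the floor. The median of the list was −0.08 with LARGE2 at the first bound too. After TGFβ1, 8 of 18 were called in wt-GR cells (5 higher and 3 lower) and 5 in S134A-GR cells (2 higher and 3 lower), beside 21.0% and 18.7% of all genes, with medians of 0.01 and 0.02. B4GAT1, which primes the laminin-binding chain, fell in both lines, with −0.27 and −0.40 (adjusted p = 0.00119 and 5.4e-05, limma).

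Among the ligands of dystroglycan in the matrix were differences between the lines larger than that of any partner. Of 11 genes listed 10 were tested, and 7 were called between the lines under vehicle and 7 with TGFβ1 (3 higher and 4 lower each), beside 51.5% and 48.8% of all genes, with medians of −0.03 and 0.01. LAMA1, the laminin α1 chain, was higher by 1.99 under vehicle (means of 619 against 155 normalized counts, adjusted p = 4.84e-08, limma). LAMA4 was lower under vehicle, with −1.85 (75.3 against 267, adjusted p = 2.29e-06, limma), as were LAMA5 with −0.73 (adjusted p = 1.25e-06, limma) and AGRN, the gene of agrin, with −0.53 (adjusted p = 1.37e-08, limma). LAMB1 and LAMB2, laminin β chains, were higher under vehicle by 0.48 and 0.56 (adjusted p = 8.98e-06 and 8.84e-07, limma). After TGFβ1 3 of 10 were called in wt-GR cells (1 higher and 2 lower) and 4 of 10 in S134A-GR cells, all lower, beside 21.0% and 18.7% of all genes, with medians of −0.18 and −0.21. LAMA5 fell in both, with −0.46 and −0.52 (adjusted p = 0.000349 and 0.000147, limma).

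Of 14 genes for cytoskeletal and adaptor proteins that bind the complex, all tested, 8 were called between the lines under vehicle and 8 with TGFβ1 (4 higher and 4 lower each), beside 51.5% and 48.8% of all genes, with medians of 0.09 and 0.00. KRT19, a keratin that can bind dystrophin, was lower in vehicle-treated S134A-GR cells, with −2.31 (837 against 4158 normalized counts, adjusted p = 3.15e-11, limma). Under vehicle PLEC, the gene of plectin, which links intermediate filaments to dystrophin and dystroglycan, was higher by 0.87 (adjusted p = 1.26e-06, limma), as was ANK2, an ankyrin gene, by 0.43 (adjusted p = 0.000585, limma), and ACTG1, the gene of γ-actin, was lower, with −0.26 (adjusted p = 5.07e-05, limma). CAV3, the muscle caveolin, was called higher by 1.16 from low means of 14.4 against 6.01 (adjusted p = 0.0423, limma). After TGFβ1, 5 of 14 were called in wt-GR cells (3 higher and 2 lower) and 2, both higher, in S134A-GR cells, beside 21.0% and 18.7% of all genes, with medians of 0.11 and 0.00. ACTB and ACTG1 rose in both lines, by 0.21 and 0.20 in wt-GR cells (adjusted p = 0.00172 and 0.00145, limma) and by 0.14 and 0.19 in S134A-GR cells (adjusted p = 0.021 and 0.00331, limma).

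Markers of skeletal muscle did not move together with DMD. Of 18 genes taken as markers of skeletal muscle 10 had a row, and MYOD1, MYF5, MYF6, MYOG and PAX7, the defining transcription factors, as well as MYH1, MYH2 and TNNT3, were not analysed here. CKM, ACTA1, MYL1 and MYH7, genes of muscle creatine kinase and of the contractile apparatus, had at most 7.37, 10.4, 10.5 and 3.56 normalized counts in any library. Other genes of the list were higher, with group means of 599 to 707 for MYH3 and 39.9 to 44.9 for NEB. The summed level of the list was 13465 to 14420 in wt-GR cells and 15026 to 15896 in vehicle-treated S134A-GR cells, nearly all from TNNT1. Without TNNT1 it was 1349 to 1688 and 1075 to 1286. Of the 9 tested, 1 was higher (TNNT1, 0.20, adjusted p = 0.00181, limma) and 3 were lower in vehicle-treated S134A-GR cells, beside 51.5% of all genes called. The latter were DES, TTN and MB, the genes of desmin, titin and myoglobin, with −1.24, −0.67 and −0.75 (adjusted p = 0.00115, 0.00073 and 0.000779, limma). The medians of the 9 were 0.05 under vehicle and −0.47 with TGFβ1, where again 1 was higher and 3 were lower, beside 48.8% of all genes called.

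The genes beside DMD on chromosome X were measured to see whether the region moved as a whole. Of the 10 protein-coding genes on each side, over 10.1 Mb, 7 had a row and 6 were tested, of which 3 differed between the lines under vehicle and 4 with TGFβ1, beside 51.5% and 48.8% of all genes. TAB3, the nearest of those tested at 123 kb, had means of 2638 in wt-GR cells and 3072 in vehicle-treated S134A-GR cells (0.23, adjusted p = 0.0203, limma) and 2502 and 3510 with TGFβ1 (0.49, adjusted p = 8.72e-05, limma). GK, the glycerol kinase gene at 366 kb, had 259 and 319 under vehicle (0.32, adjusted p = 0.137, limma). MAGEB2, a cancer-testis gene at 878 kb, went the opposite way, with 233 in the wt-GR line and 40.2 in S134A-GR cells (−2.51, adjusted p = 5.83e-07, limma). IL1RAPL1, a synaptic receptor gene at 1141 kb, had 543 and 728 (0.43, adjusted p = 0.000602, limma). On the side where the full-length starts of DMD lie, PRRG1 at 4010 kb had 991 and 960 (−0.05, adjusted p = 0.661, limma). PRRG1 was the only neighbor tested on that side. Since DMD lies on the minus strand, the distances of the other tested neighbors run from the opposite end of the gene. The region close to the full-length starts was therefore not probed. MAGEB1 had at most 6 reads in a library, and 0 in all S134A-GR libraries. It was among the 4 called with TGFβ1 (−1.94, adjusted p = 0.039, limma), a call that rests on these few reads. No tested neighbor had a difference near that of DMD.

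**Figure D5:**
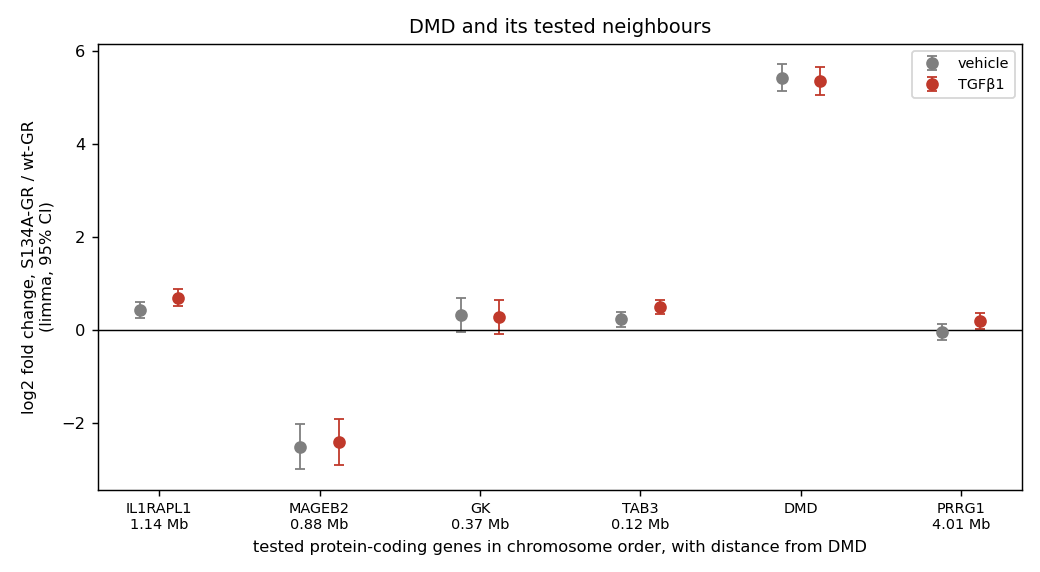
Log2 difference, S134A-GR minus wt-GR (y axis, limma, with 95% CI) for DMD and 5 tested neighbors in chromosome order (x axis, labelled with the distance from the nearer end of DMD), under vehicle (gray) and TGFβ1 (red). MAGEB1, at 0 in all S134A-GR libraries, is not drawn. DMD, which was chosen for its difference between the lines, stands at 5.42 and 5.35, MAGEB2 at −2.51 and −2.41, and the others between −0.05 and 0.69.

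The genes whose pattern over the 12 libraries was most like that of DMD lay on other chromosomes. The measure was the root mean square distance between log2 values centered on each gene's mean, among 13280 genes with a mean of at least 50 normalized counts. THSD7B on chromosome 2 was nearest (0.83), with group means of 13.2 and 12.2 in the wt-GR line and 186 and 195 in S134A-GR cells. SPP1 on chromosome 4, the gene of osteopontin, followed (0.85), with 98.2 and 128 in the wt-GR line and 1611 and 1483 in S134A-GR cells. LYPLAL1-AS1 (0.97), ZNF300 (1.08) and FAM19A2 (1.1) came next, on chromosomes 1, 5 and 12. The ranking used the pattern of DMD itself, so that these genes are high in S134A-GR cells follows from how they were chosen. Of the 5, all but SPP1 reached the mean of 50 through their S134A-GR libraries.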

How the data were processed

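RNA-seq libraries (TruSeq RNA kit, HiSeq2500, 75-base paired-end reads) were made from 12 samples of MDA-MB-231 cells. Per the study's methods, the authors trimmed the reads, used HISAT2 for alignment (hg38) and featureCounts for gene counts, and scaled these by DESeq2 size factors, while the submitters' processing notes name FastQC 0.11.7 and DESeq2 1.22.2. The deposited values are thus a signal, 1 normalized count per gene symbol and library. The gene annotation and strand setting are not given in the sources used here. Division by each library's smallest step returned whole reads for 100% of values (tolerance 0.001).

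Genes with at least 10 recovered reads over the 12 libraries were tested. Log2(normalized count + 1) was fitted with limma 3.58.1 (R 4.3.3) on 4 group means with a trend, and p-values were adjusted by Benjamini-Hochberg over all 18579 genes, with calls at 0.05. Fold changes on this scale understate those of low genes. The fit was tested on simulated data. Alternatives were edgeR 4.0.16 and DESeq2 1.42.0 on the recovered reads, other scalings, filters and pseudocounts (0.5 and 16), a replicate block, the compared groups alone, and leaving out each library. Floors cover counting error only. Transcript lengths came from GENCODE v44 (94.9% of tested genes) and promoters from RefSeq, with 8 of the 10 genes shown or searched.

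The members and lists were chosen with earlier results of these data known. Named with values were all 10 members, genes of the other lists called at 0.05 (up to 6 a list, by size), muscle markers, the 5 genes most like DMD, and neighbors on the chromosome. Some genes counted in the lists are not reported here by name.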

Additional observations from a re-analysis of the deposited data

Results flagged for a closer look

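PMEPA1, a TGFβ1 target used to check the treatment, responded less in S134A-GR cells, as a test of the difference itself showed. It rose by 2.90 (log2) in wt-GR and by 2.18 in S134A-GR cells. These responses differed by −0.72 (adjusted p = 0.000909, limma), with all 3 treated libraries above all untreated ones in each line.

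AGRN, the gene of agrin, a ligand of dystroglycan, had TGFβ1 responses of opposite sign in the lines, with no overlap between treated and untreated libraries in either. The response was 0.09 in wt-GR cells, which did not pass (adjusted p = 0.0613, limma), and −0.10 in S134A-GR cells (adjusted p = 0.0495, limma). Its means were 47722 under vehicle and 50898 with TGFβ1 in wt-GR cells, and 33069 and 30864 in S134A-GR cells. The difference between the responses was −0.19 and did not pass the test over all genes (adjusted p = 0.136, limma).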

How the results depend on the processing

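The 10 genes had 50 fold changes, each tried under 22 alternatives (21 for the difference between responses), 12 of which left out a library each, and 1026 of these 1090 values kept their direction and their side of the threshold. The values of DMD between the lines are among them, and DMD had been chosen for that difference. The calls between the lines of DAG1, SGCB, SGCE, SNTB1 and DTNA held in all 22 alternatives under both treatments, and that of SSPN under vehicle. The TGFβ1 calls of DAG1, SGCE and SNTB1 held in all 22 in the wt-GR line, and that of SNTB1 in the S134A-GR line. With a fold change of at least 1 (log2) also required, 1, 1, 0 and 0 of the 10 genes were called in the 4 comparisons of groups, and between the lines that gene was DMD, which had been chosen for it. Fitted on the compared groups alone, 2 of the 10 were called for TGFβ1 in S134A-GR cells, and 1 of the further genes of the complex in wt-GR cells. With each library left out, the calls of members ranged from 3 to 7 for TGFβ1 in wt-GR and from 1 to 5 in S134A-GR cells, and those of the further genes from 1 to 3 and 1 to 2, and from 1 to 2 between the lines with TGFβ1. Leaving out libraries lowers the number of samples. Small changes that were not called turned sign, and the cause was not tested: SNTB2 between the lines (−0.03 to 0.16 under vehicle and −0.06 to 0.09 with TGFβ1 with each library left out, and 0.00 by edgeR with TMM), DMD after TGFβ1 (−0.06 to 0.27 in wt-GR and −0.02 to 0.08 in S134A-GR cells), SGCB after TGFβ1 in S134A-GR cells (−0.02 to 0.04), and the difference between responses for SNTB2 (−0.14 to 0.05) and DMD (−0.24 to 0.09, and 0.00 by DESeq2).

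Libraries with the same replicate number did not deviate together (r from −0.105 to 0.128 over 18 pairs, and 4 of 12 libraries were closest to their own number). With the replicate block 8, 6, 6, 3 and 0 members were called in the 5 comparisons in place of 8, 6, 7, 4 and 0. The counts of 8 and 6 between the lines include DMD, which had been chosen for that difference. Without DMD the main fit called 7 and 5 of the partners there. Library depth limits SGCA and LARGE2, whose calls rest on few reads, and forms of DMD cannot be told apart in counts per gene.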
